A study of Mus musculus with 20 samples.

Results

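The genes described here are 42 genes of mitosis, from the cyclins and kinases that drive a cell into division to the proteins that part the daughter cells. They were taken as a list of gene symbols, with the brightest probe standing for each gene, and were followed over 4 sites. To be tested, a gene needed a signal well above background on 4 or more of the 5 arrays of some site. All 42 had a probe and 32 were tested, among 8057 genes tested of 20886 with a probe. The probes were those of 1-colour Agilent mouse arrays, and the RNA came from CD8+ T effector cells whose donors belonged to the strain C57BL/6-Tg(TcraTcrb) 1100Mjb/J, known as OT-I. Its transgenic receptor recognises an ovalbumin peptide. The donor T cells carried the CD45.1 allele, and the remaining graft cells and the recipients carried CD45.2. Recipients were C57Bl/6 m-act OVA females (C57Bl/6-Tg(CAG-OVA)-916Jen/J) aged 8-16 weeks, in which the CAG promoter drives ovalbumin. They received 11 Gy of total body irradiation and a graft of bone marrow and splenocytes, which led to lethal acute graft versus host disease. On day 4 the CD45.1 cells were selected with magnetic beads from liver, lung, small intestine and peripheral blood, with 5 arrays per site. Every group thus shares the irradiation, the graft and the disease, and no group is without them. The comparisons ask how donor T cells in the organs differ from those in blood. No label links an array to a mouse. The p-values therefore reflect only how far these arrays spread, part of which may be technical, and precision is limited by the 5 arrays per site.

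In mitosis, Cdk1 bound to cyclin A or cyclin B starts chromosome condensation and spindle assembly. Polo and Aurora kinases then mature the spindle poles and correct wrong attachments, and kinetochores built on the centromere bind the spindle microtubules. The spindle assembly checkpoint holds back the anaphase promoting complex until every kinetochore is attached. Cdc20 then activates that complex, cohesin is cleaved, and a central spindle sets the place of cytokinesis. Many of these genes are transcribed late in the cell cycle under the MuvB complex with B-Myb and Foxm1, and activated CD8 T cells divide rapidly in the days after they meet antigen.

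The signal at the 75th percentile, to which every array was scaled, lay between 823 and 2845, and 22.6% to 38.7% of the probes on an array were well above background. Cd3d, Cd3e, Cd3g, Cd8a and Cd8b1, which define CD8 T cells, were each bright, that is well above background, on 4 or 5 arrays of every site. The array labelled liver 5 carried Paneth cell markers (mean 1.86, against -2.57 to -2.17 on the other liver arrays), and the array labelled small intestine 5 did not (-3.34, against 0.48 to 5.85 on the other small intestine arrays). Both go against their labels in this respect. Whether the 2 labels were exchanged was not tested and no label was changed, so each liver and small intestine mean rests on these labels. Results are therefore also given without these 2 arrays. Of the 12 alveolar macrophage markers, 11 were well above background on at least 4 lung arrays, with means of 2.25 to 4.90, while lung 3 had a mean of -1.47. Of 10 hepatocyte markers, 1 was well above background on at least 4 liver arrays.

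Promoter sequence was available from RefSeq (assembly GRCm38.p6) for 34 of the 42 genes, as windows of 300 bases with 250 before and 50 after the annotated start. Ccna2, Cdc25c, Foxm1, Aurkb, Incenp, Tpx2, Kif20a and Cdca2 were not listed. Each window was searched on both strands for the cell cycle homology element, which the MuvB complex is known to bind (TTTGAA or TTCGAA), and for the CCAAT box (CCAAT), which the NF-Y factor is known to bind. The element was found in 27 of 34 windows (79.4%), against 19.4% of the 27025 genes in the table, and the CCAAT box in 26 (76.5%), against 37.9%. Both stood in 23 of 34 windows (67.6%), against 7.70% of all genes. These matches describe letters in a window and do not show that a factor binds there. Other spellings of the element were not searched. The sequences below show the typical arrangement in Plk1, Cdc20 and Kif23, with a CCAAT box followed by the element near the start. In Cdc20 a further box stands after it. Ccnb1 is shown as a gene with CCAAT boxes and no match to TTTGAA or TTCGAA in its window. Capitals mark the matches, and each is written 5′ to 3′ on the strand of the gene (chr7:122159185-122159484 on the plus strand, and chr4:118437294-118437593, chr9:61946750-61947049 and chr13:100786437-100786736 on the minus strand).
Plk1: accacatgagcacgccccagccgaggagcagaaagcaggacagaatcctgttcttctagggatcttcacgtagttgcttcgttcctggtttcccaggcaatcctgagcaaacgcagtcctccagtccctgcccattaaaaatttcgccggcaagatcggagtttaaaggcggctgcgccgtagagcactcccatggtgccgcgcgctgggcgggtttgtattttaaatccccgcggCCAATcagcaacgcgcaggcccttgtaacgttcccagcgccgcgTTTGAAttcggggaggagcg
Cdc20: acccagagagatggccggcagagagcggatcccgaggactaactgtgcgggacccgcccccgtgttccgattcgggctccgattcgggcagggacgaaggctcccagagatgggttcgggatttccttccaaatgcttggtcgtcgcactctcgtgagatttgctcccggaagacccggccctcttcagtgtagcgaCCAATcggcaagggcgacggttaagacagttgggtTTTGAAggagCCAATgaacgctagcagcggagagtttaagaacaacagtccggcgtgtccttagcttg
Kif23: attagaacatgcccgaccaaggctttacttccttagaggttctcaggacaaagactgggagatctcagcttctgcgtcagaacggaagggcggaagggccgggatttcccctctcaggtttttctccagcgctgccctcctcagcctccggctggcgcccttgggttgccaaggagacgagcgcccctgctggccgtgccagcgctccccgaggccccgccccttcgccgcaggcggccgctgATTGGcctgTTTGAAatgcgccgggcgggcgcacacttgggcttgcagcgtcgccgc
Ccnb1: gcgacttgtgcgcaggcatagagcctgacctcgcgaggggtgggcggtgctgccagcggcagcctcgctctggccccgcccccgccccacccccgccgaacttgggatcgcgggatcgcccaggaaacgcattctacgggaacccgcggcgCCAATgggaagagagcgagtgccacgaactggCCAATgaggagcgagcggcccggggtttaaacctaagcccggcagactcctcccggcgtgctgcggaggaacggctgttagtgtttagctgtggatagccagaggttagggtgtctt

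Positions were counted from the annotated start, which is 0. Of 55 CCAAT matches, 40 began within the 100 bases before the start, at a median position of -58, and the 36 matches of the element had a median position of 3. Of the 19 tested genes with a match of the element 13 were called lower in the small intestine than in blood (median difference -1.40). Of the 7 without such a match 4 were called lower (median -1.25). Of all tested genes 9.92% were called lower and their median was -0.36. The windows of Birc5, Mad2l1, Nuf2 and Nusap1 held no match of either motif.

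**Figure D1:**
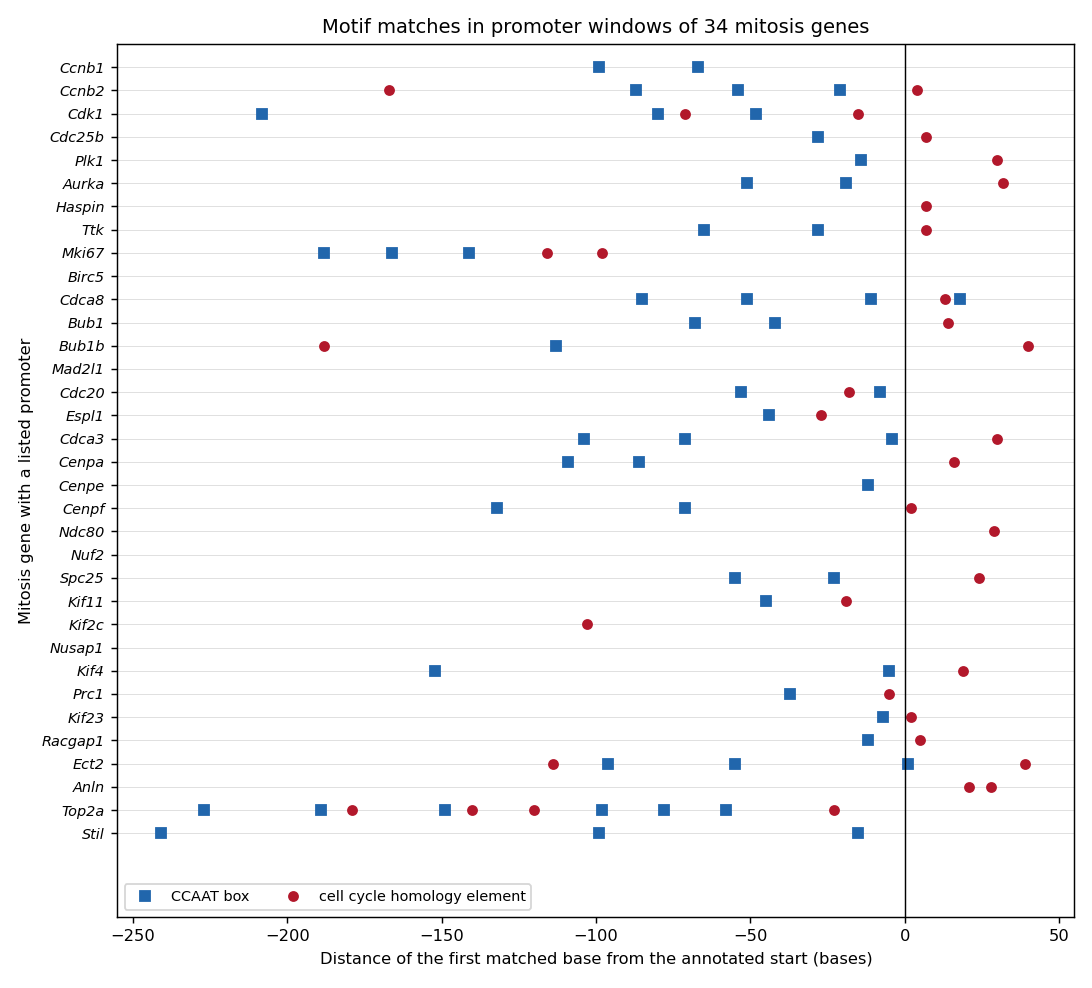
Position of each motif match in the promoter windows of 34 mitosis genes, in bases from the annotated start (vertical line at 0). Blue squares are CCAAT boxes and red circles cell cycle homology elements, and most squares lie left of the line (median -58) while the circles gather around it (median 3).

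Levels are log2 signals after subtraction of the log2 75th percentile of each array, and differences are on the same log2 scale, so that -1 stands for a signal 2-fold lower. Levels of different genes are not compared, since each gene has its own probe. Values by array are given in the order of replicates 1 to 5. The mean over the 32 tested genes was 2.52 ± 0.43 in blood (SD, n = 5), 2.30 ± 0.65 in liver, 1.68 ± 0.50 in lung and 1.10 ± 0.58 in the small intestine. By array it was 2.70, 2.91, 2.40, 1.82 and 2.76 in blood and 2.76, 2.81, 2.25, 2.47 and 1.20 in liver. It was 2.34, 1.96, 1.65, 1.04 and 1.40 in lung and 1.07, 0.78, 0.83, 0.70 and 2.11 in the small intestine. Liver 5 was thus the low array of its site and small intestine 5 the high one of its own. Without these 2 arrays the mean was 2.57 ± 0.26 in liver and 0.84 ± 0.16 in the small intestine (SD, n = 4). Counted gene by gene, 26, 27, 26 and 27 of the 32 genes on small intestine arrays 1 to 4 lay below the lowest blood array, and 10 did on small intestine 5. The same count was 4, 12, 13, 26 and 20 on the lung arrays and 1, 1, 3, 1 and 23 on the liver arrays. It was not made over all tested genes, so these counts do not set the mitosis genes apart from other genes.

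**Figure D2:**
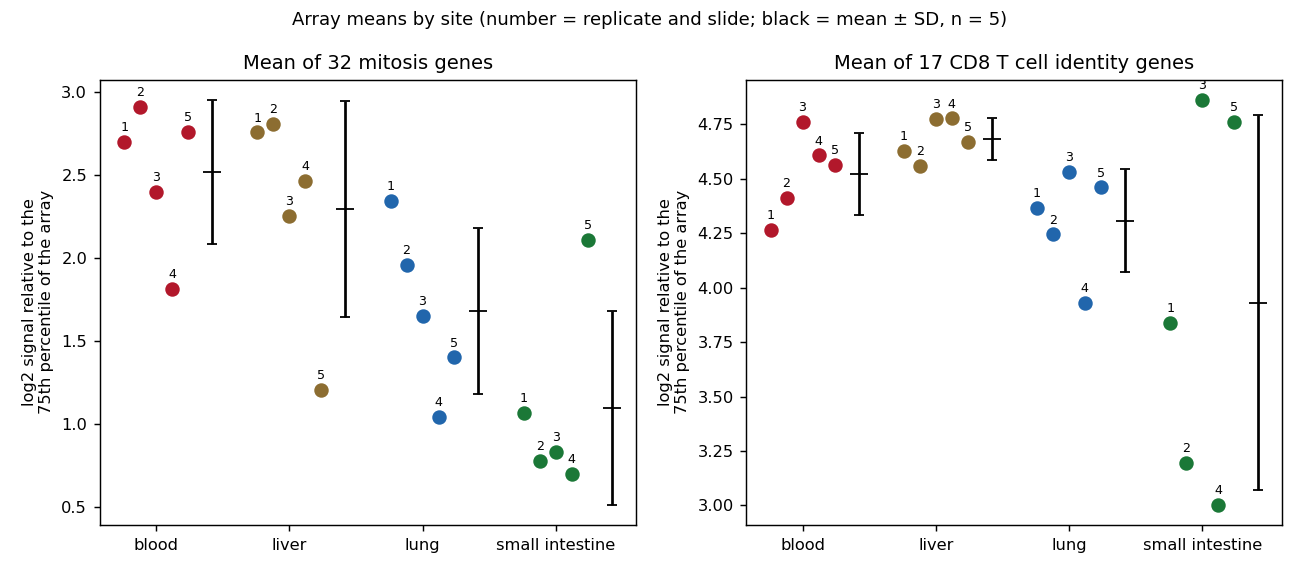
Mean log2 level of the 32 tested mitosis genes (left) and of 17 CD8 T cell identity genes (right) on each of 20 arrays, by site, with the replicate number beside each point and the mean ± SD of 5 arrays in black. In the left panel small intestine arrays 1 to 4 lie between 0.70 and 1.07, below every blood array, and small intestine 3 does so with an identity mean of 4.86.

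In bulk RNA, fewer cells of a type and less RNA per cell cannot be told apart. The mean over 17 CD8 T cell identity genes, such as those of the T cell receptor complex, was 3.84, 3.20, 4.86, 3.00 and 4.76 on the small intestine arrays, against 4.27, 4.41, 4.76, 4.61 and 4.56 in blood. Paneth cell markers averaged 3.74, 4.94, 0.48, 5.85 and -3.34 on the small intestine arrays and -3.02 to -1.73 in blood, and 5 of 9 with a probe were well above background on at least 4 small intestine arrays. Markers of intestinal crypt progenitors, which also divide, averaged -1.92 to 0.22 in the small intestine and -1.88 to -0.62 in blood. Monocyte and macrophage markers averaged 1.87 and 2.25 on small intestine 1 and 2 and at most -1.28 on the other small intestine and the blood arrays. The part of these cells in the difference between small intestine and blood was not tested. The low identity means fell on small intestine 1, 2 and 4. Small intestine 3 had the highest identity mean of all blood and small intestine arrays and a mitosis mean of 0.83, below the lowest blood array (1.82). Liver 5 had an identity mean of 4.67, within the range of the other liver arrays (4.56 to 4.78), and a mitosis mean of 1.20.

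**Figure D3:**
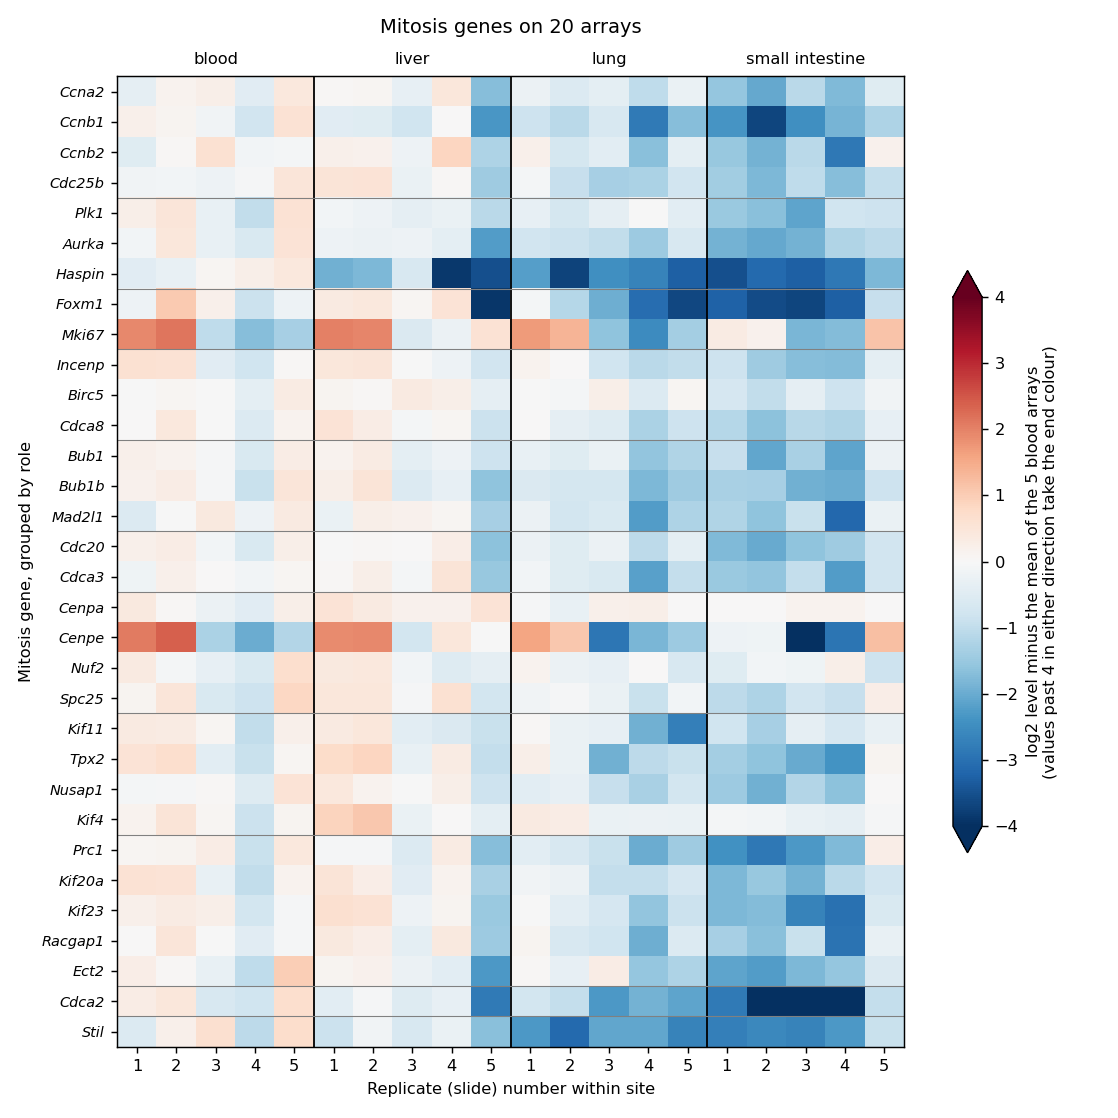
Level of each of the 32 tested mitosis genes (rows, grouped by role) on each of 20 arrays (columns, by site and replicate), as log2 difference from the mean of the 5 blood arrays. Blue is lower and red higher, liver 5, lung 4 and small intestine 1 to 4 stand out in blue over most rows, and Mki67 and Cenpe change colour between replicates 1 and 2 and the rest.

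Between small intestine and blood, 22 of the 32 genes were called lower and none higher with limma at an adjusted p under 0.05, where 9.92% of all tested genes were called lower and 0.918% higher. The median difference was -1.41, against -0.36 over all 8057 genes, and 31 of 32 differences were negative. The share of negative differences over all genes is not given here. The filter bears on this count. Haspin and Stil passed it only through blood, so that they had to be higher there than elsewhere. Foxm1, Cdca2, Kif23 and Bub1b passed it only through blood and liver, and Bub1 through every site but the small intestine. All of these were among the 22, and the filter favoured a lower value in the small intestine for each. Of the 21 genes that were well above background on all 20 arrays, 15 were among the 22. The 9.92% covers all 8057 tested genes, and no share is given for those well above background on all 20 arrays. Small intestine values lay below every blood value for 9 of the 32 genes, namely Ccna2, Ccnb1, Cdc25b, Aurka, Haspin, Foxm1, Cdc20, Cdca3 and Cdca2, where the share over all genes was 7.81%. Without liver 5 and small intestine 5 the 22 genes were called again with Ccnb2, Tpx2, Birc5 and Spc25, or 26 of 32 against 21.6% of all genes, and 23 did not overlap with blood, against 15.4%. The count depended on single arrays: leaving out small intestine 2 gave 0 calls, small intestine 1 gave 11, small intestine 4 gave 9, blood 2 gave 9, blood 3 gave 10 and blood 5 gave 7. The count was 26 without small intestine 5. The share of all genes called lower also depends on the arrays used, as the 9.92% and 21.6% above show. It is not given for these counts, so whether a loss of calls here is particular to the mitosis genes cannot be told.

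Scaled on the probes well above background everywhere, 2 of the 32 were called (Haspin and Stil, against 0.186% of all genes). There were 13 with quantile normalization and as many with the deposited values (5.18%), 14 with a fit of these 2 sites alone (3.7%) and 9 without a filter on dim probes (1.06%). Relative to the CD8 T cell identity genes of each array, the median difference was -0.82 for the mitosis genes and 0.23 for all genes. None of the 32 was called with limma, against 0.137% of all genes. An unadjusted p under 0.05 was reached by 18 of them, given here without a count over all genes. With that scaling and without liver 5 and small intestine 5, 12 of 32 were called lower, against 4.65% of all genes: Ccna2, Ccnb1, Ccnb2, Haspin, Foxm1, Mad2l1, Cdc20, Prc1, Kif23, Racgap1, Cdca2 and Stil. The distance between the 2 medians was 1.05 with all arrays and 1.21 without those 2; scaling to the identity genes moves all genes of an array alike and leaves this distance as it was.

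Of the 6 genes of the Cdk1 module 4 were tested and 3 of them fell. Ccnb1 encodes cyclin B1, which activates Cdk1 at the entry into mitosis. It read 3.66, 3.56, 3.32, 2.67 and 4.04 in blood, 2.99, 2.96, 2.67, 3.46 and 1.11 in liver, 2.63, 2.37, 2.82, 0.61 and 1.75 in lung, and 1.09, -0.22, 1.00, 1.58 and 2.21 in the small intestine. All 5 small intestine values lay below the lowest blood value, and liver 5 lay among them. The difference between small intestine and blood was -2.32 (SE 0.48, adjusted p = 0.017). Cdc25b, a phosphatase that removes the inhibitory phosphates from Cdk1, read 2.47, 2.51, 2.42, 2.57 and 3.09 in blood, 3.13, 3.17, 2.34, 2.67 and 1.19 in liver, 2.53, 1.69, 1.27, 1.35 and 1.83 in lung, and 1.21, 0.81, 1.61, 0.92 and 1.67 in the small intestine. The groups from small intestine and blood again did not overlap, and the difference was -1.37 (SE 0.33, adjusted p = 0.021). Ccna2, the gene of cyclin A2, which acts from S phase to early mitosis, read 4.00, 4.49, 4.60, 3.89 and 4.76 in blood, 4.39, 4.41, 4.01, 4.81 and 2.63 in liver, 4.11, 3.80, 3.97, 3.33 and 4.07 in lung, and 2.81, 2.30, 3.25, 2.57 and 3.88 in the small intestine. It was lower in the small intestine by a difference of -1.39 (SE 0.36, adjusted p = 0.025), without overlap. Ccnb2, the second mitotic cyclin B, differed by -1.44 (SE 0.47, adjusted p = 0.052) and had 1 small intestine value, that of array 5, within the blood range. Without liver 5 and small intestine 5 it was called (-1.84, adjusted p = 0.0036). The probe of Cdk1 itself was well above background on 3 of 20 arrays (1 of blood, 2 of liver) and that of Cdc25c, a further phosphatase of Cdk1, on none, so neither was tested.

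All 3 tested mitotic kinases fell. Haspin phosphorylates histone H3 at the centromere, which recruits the Aurora B kinase complex. It read 0.12, 0.30, 0.67, 0.84 and 1.00 in blood, -1.34, -1.22, -0.06, -3.27 and -2.92 in liver, -1.62, -3.13, -1.87, -2.09 and -2.67 in lung, and -2.93, -2.51, -2.67, -2.28 and -1.20 in the small intestine. Its probe was well above background on 4 blood arrays, 1 liver array, 1 small intestine array and no lung array. The highest organ value, that of liver 3, lay below the lowest blood value. The difference was -2.91 (SE 0.49, adjusted p = 0.013). Haspin lies inside the gene Itgae in the RefSeq table. Aurka, the kinase of the spindle poles, read 2.76, 3.34, 2.57, 2.25 and 3.43 in blood, 2.66, 2.63, 2.68, 2.48 and 0.63 in liver, 2.10, 2.02, 1.88, 1.42 and 2.23 in lung, and 0.97, 0.83, 0.98, 1.66 and 1.82 in the small intestine. Small intestine and blood did not overlap, and the difference was -1.62 (SE 0.36, adjusted p = 0.017). Plk1, the polo kinase that acts from mitotic entry to cytokinesis, read 3.53, 3.76, 2.98, 2.30 and 3.88 in blood, 3.17, 3.09, 2.94, 3.01 and 2.21 in liver, 2.97, 2.60, 2.93, 3.29 and 2.87 in lung, and 1.80, 1.63, 1.18, 2.51 and 2.46 in the small intestine. Blood 4 was the low blood array and overlapped with small intestine 4 and 5, so that Plk1 was lower on 4 of 5 slides. The difference was -1.37 (SE 0.31, adjusted p = 0.018). Ttk, the kinase that starts checkpoint signalling, gave no array well above background.

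Foxm1, the transcription factor that activates many genes of this list, read 0.56, 1.82, 0.97, -0.10 and 0.57 in blood, 1.14, 1.19, 0.86, 1.33 and -3.14 in liver, 0.69, -0.37, -1.19, -2.28 and -2.88 in lung, and -2.45, -2.80, -2.91, -2.51 and -0.16 in the small intestine. Its probe was well above background on 5 blood, 4 liver, 2 lung and 1 small intestine array. Liver 5 stood with the small intestine arrays, and small intestine 5 stood near blood 4. The difference between small intestine and blood was -2.93 (SE 0.79, adjusted p = 0.028). A second Foxm1 probe stayed near background throughout. Mki67, the gene of the proliferation antigen Ki-67, which coats mitotic chromosomes, read 5.56, 5.79, 2.64, 1.95 and 2.34 in blood, 5.67, 5.60, 3.07, 3.41 and 4.23 in liver, 5.35, 5.01, 2.03, 1.14 and 2.30 in lung, and 3.98, 3.83, 1.84, 1.93 and 4.81 in the small intestine. Its difference was -0.38 (SE 0.92, adjusted p = 0.74), with a change of sign when scaled to the identity genes (0.21). The mean was 5.10 on slides 1 and 2 and 2.64 on slides 3 to 5, with overlap, since small intestine 5 and liver 5 lay above small intestine 1 and 2. The spread within blood (SD 1.86) exceeded the difference between sites.

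The chromosomal passenger complex corrects attachments at the centromere and later acts in cytokinesis, and 2 of its 3 tested genes fell. Incenp, its scaffold, read 4.95, 4.92, 3.86, 3.54 and 4.38 in blood, 4.78, 4.82, 4.33, 4.13 and 3.57 in liver, 4.46, 4.35, 3.54, 3.26 and 3.36 in lung, and 3.49, 2.92, 2.61, 2.60 and 3.94 in the small intestine. Small intestine 5 overlapped with blood, and Incenp was lower on 5 of 5 slides, by -1.22 (SE 0.36, adjusted p = 0.038). A second Incenp probe differed by -1.42 (SE 0.40, adjusted p = 0.039). Cdca8, the gene of borealin, read 4.71, 5.12, 4.68, 4.18 and 4.85 in blood, 5.26, 4.99, 4.64, 4.80 and 3.85 in liver, 4.73, 4.34, 4.20, 3.44 and 3.87 in lung, and 3.56, 3.08, 3.58, 3.51 and 4.39 in the small intestine, a difference of -1.08 (SE 0.30, adjusted p = 0.031). The overlap between the groups came from blood 4 and small intestine 5. With the mean of all its probes the difference of Cdca8 was -0.26 and was not called. Birc5, the gene of survivin, read 6.15, 6.25, 6.15, 5.78 and 6.49 in blood, 6.27, 6.20, 6.54, 6.41 and 5.82 in liver, 6.16, 6.10, 6.40, 5.61 and 6.23 in lung, and 5.49, 5.19, 5.82, 5.35 and 6.01 in the small intestine. Its difference was -0.59 (SE 0.22, adjusted p = 0.079) and changed sign when scaled to the identity genes without liver 5 and small intestine 5 (0.09), while without these 2 arrays alone it was called (-0.70, adjusted p = 0.026). For Aurkb, the kinase of this complex, 0 of 20 arrays were well above background.

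All 3 genes of the spindle assembly checkpoint fell. Bub1b, whose product BubR1 is part of the inhibitor of Cdc20, read 0.44, 0.56, 0.21, -0.62 and 0.74 in blood, 0.50, 0.80, -0.28, -0.05 and -1.33 in liver, -0.30, -0.42, -0.43, -1.54 and -1.16 in lung, and -1.04, -1.07, -1.67, -1.72 and -0.57 in the small intestine. Small intestine 5 lay within the blood range and the difference was -1.48 (SE 0.37, adjusted p = 0.023). Bub1, a kinase of the outer kinetochore, read 1.91, 1.87, 1.68, 1.11 and 2.03 in blood, 1.86, 2.05, 1.34, 1.53 and 0.89 in liver, 1.43, 1.22, 1.45, 0.13 and 0.51 in lung, and 0.80, -0.34, 0.43, -0.39 and 1.47 in the small intestine, a difference of -1.33 (SE 0.36, adjusted p = 0.028). Mad2l1, the gene of Mad2, which binds Cdc20, read 2.54, 3.08, 3.49, 2.88 and 3.43 in blood, 2.81, 3.33, 3.26, 3.18 and 1.77 in liver, 2.85, 2.35, 2.49, 0.84 and 1.85 in lung, and 1.87, 1.47, 2.20, -0.07 and 2.81 in the small intestine. Its difference of -1.43 (SE 0.46, adjusted p = 0.0498) stood at the threshold, and a second Mad2l1 probe differed by 0.03 (SE 0.30, adjusted p = 0.94), so its probes disagree.

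Of the group of Cdc20, Cdca3 and Espl1, both tested genes fell. Cdc20, the activator of the anaphase promoting complex, read 5.39, 5.47, 5.07, 4.56 and 5.40 in blood, 5.16, 5.22, 5.20, 5.43 and 3.54 in liver, 4.93, 4.71, 4.96, 4.14 and 4.78 in lung, and 3.42, 3.17, 3.56, 3.77 and 4.41 in the small intestine. The lowest blood array was above the highest small intestine array, and liver 5 stood alone below the other liver arrays. The difference was -1.52 (SE 0.33, adjusted p = 0.017). Cdca3, an adaptor of the ubiquitin ligase that removes Wee1, an inhibitor of Cdk1, read 3.05, 3.41, 3.23, 3.11 and 3.30 in blood, 3.28, 3.45, 3.15, 3.74 and 1.71 in liver, 3.10, 2.73, 2.62, 1.03 and 2.25 in lung, and 1.75, 1.64, 2.27, 0.97 and 2.46 in the small intestine. Its values in blood spanned 3.05 to 3.41, no small intestine value reached them, and the difference was -1.40 (SE 0.39, adjusted p = 0.031). Espl1, the gene of separase, which cleaves cohesin, was well above background on 4 arrays (1 of blood, 3 of liver) and was not tested.

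None of the 4 tested genes of the centromere and kinetochore was called. Spc25, a subunit of the Ndc80 complex, which binds microtubules, read 4.08, 4.46, 3.35, 3.15 and 4.79 in blood, 4.42, 4.41, 3.93, 4.58 and 3.23 in liver, 3.84, 3.93, 3.71, 3.07 and 3.84 in lung, and 2.92, 2.72, 3.20, 3.03 and 4.24 in the small intestine. The difference was -0.74 (SE 0.35, adjusted p = 0.15), and it was called without liver 5 and small intestine 5 (-1.00, adjusted p = 0.026). Nuf2, of the same complex, read 0.01, -0.41, -0.66, -0.94 and 0.33 in blood, 0.06, 0.09, -0.43, -0.85 and -0.68 in liver, -0.18, -0.57, -0.66, -0.32 and -0.97 in lung, and -0.83, -0.44, -0.51, -0.11 and -1.17 in the small intestine, with a difference of -0.28 (SE 0.28, adjusted p = 0.43) that changed sign when scaled to the identity genes (0.31). Cenpe, a kinesin that moves chromosomes to the spindle equator, read 4.17, 4.48, 0.83, 0.10 and 0.92 in blood, 3.98, 4.03, 1.37, 2.55 and 2.08 in liver, 3.66, 3.19, -0.79, 0.28 and 0.65 in lung, and 1.88, 1.93, -2.03, -0.81 and 3.29 in the small intestine. As for Mki67 the mean was higher on slides 1 and 2 (3.42) than on slides 3 to 5 (0.70), while small intestine 5, liver 4 and liver 5 lay above small intestine 1 and 2. Its difference of -1.25 (SE 1.07, adjusted p = 0.36) was smaller than its SD within blood of 2.06. Cenpa, the histone H3 variant of the centromere, differed by 0.07 (SE 0.19, adjusted p = 0.79), or -0.16 with median scaling, and its small intestine values lay between 0.43 and 0.58. Cenpf and Ndc80 had 0 of 20 arrays well above background and were not tested.

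Among the motors and microtubule binding proteins of the spindle 1 of 4 tested genes fell. Nusap1, which bundles spindle microtubules, read 2.87, 2.90, 2.98, 2.42 and 3.50 in blood, 3.37, 3.08, 2.91, 3.15 and 2.11 in liver, 2.52, 2.62, 2.01, 1.63 and 2.21 in lung, and 1.47, 1.01, 1.76, 1.29 and 2.95 in the small intestine. Small intestine 5 lay in the blood range, the other 4 below it, and the difference was -1.24 (SE 0.33, adjusted p = 0.028). Tpx2, which activates Aurora A and starts microtubule growth near chromosomes, read 2.33, 2.47, 1.39, 0.90 and 1.88 in blood, 2.54, 2.64, 1.50, 2.14 and 0.84 in liver, 2.02, 1.54, -0.11, 0.76 and 0.91 in lung, and 0.43, 0.18, -0.22, -0.59 and 1.89 in the small intestine. The difference was -1.46 (SE 0.48, adjusted p = 0.052), and it was called without liver 5 and small intestine 5 (-1.84, adjusted p = 0.0053). Kif11, the motor that pushes the poles apart, read 0.30, 0.26, 0.02, -1.03 and 0.15 in blood, 0.29, 0.39, -0.50, -0.63 and -0.94 in liver, -0.03, -0.31, -0.38, -1.97 and -2.78 in lung, and -0.87, -1.38, -0.43, -0.74 and -0.35 in the small intestine, a difference of -0.70 (SE 0.45, adjusted p = 0.26). Kif4, a chromosome-bound kinesin, differed by -0.17 (SE 0.30, adjusted p = 0.65) and by 0.42 when scaled to the identity genes. Kif2c was well above background on 1 array and was not tested.

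All 5 tested genes of cytokinesis fell. Kif23, a motor of the centralspindlin complex, read 0.72, 0.84, 0.74, -0.22 and 0.47 in blood, 1.14, 1.10, 0.31, 0.63 and -0.97 in liver, 0.48, 0.10, -0.16, -1.07 and -0.34 in lung, and -1.28, -1.23, -2.18, -2.48 and -0.09 in the small intestine. Its probe was well above background on 5 blood arrays and 1 small intestine array, with small intestine 5 the highest of its site, and the difference was -1.96 (SE 0.44, adjusted p = 0.017). Kif20a, a motor that carries the passenger complex to the midzone, read 3.52, 3.48, 2.63, 1.93 and 3.08 in blood, 3.43, 3.18, 2.47, 3.06 and 1.64 in liver, 2.77, 2.68, 1.96, 1.96 and 2.25 in lung, and 1.13, 1.39, 1.03, 1.85 and 2.16 in the small intestine. It was lower on 5 of 5 slides, by -1.41 (SE 0.36, adjusted p = 0.023). Prc1, which crosslinks the microtubules of the central spindle, read 3.49, 3.53, 3.72, 2.52 and 3.86 in blood, 3.39, 3.38, 2.88, 3.74 and 1.71 in liver, 3.00, 2.77, 2.52, 1.43 and 1.99 in lung, and 0.99, 0.55, 1.12, 1.65 and 3.69 in the small intestine. Small intestine 5 stood at the level of blood and the remaining 4 arrays below all blood arrays, with a difference of -1.82 (SE 0.50, adjusted p = 0.030). Ect2, the exchange factor that activates RhoA at the cleavage site, and Racgap1, the partner of Kif23, differed by -1.65 and -1.42 (SE 0.48 and 0.45, adjusted p = 0.037 and 0.048). A second Racgap1 probe differed by -2.32 (SE 0.75) but was not called (adjusted p = 0.061). Anln, the gene of anillin, also had 0 of 20 and was not tested.

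Cdca2, which brings a phosphatase to chromosomes at anaphase, read 2.14, 2.29, 1.20, 1.05 and 2.49 in blood, 1.41, 1.78, 1.30, 1.50 and -1.00 in liver, 1.10, 0.87, -0.45, -0.06 and -0.29 in lung, and -1.00, -2.58, -2.89, -2.49 and 0.88 in the small intestine. Small intestine 2, 3 and 4 were the lowest of all arrays, and no small intestine value reached the blood range. Its difference of -3.45 (SE 0.63, adjusted p = 0.014) was the largest of the 32, on a probe that was well above background on 1 small intestine array, so its size rests on dim values. Top2a, the topoisomerase that untangles sister chromatids, was well above background on 4 of 20 arrays and was not tested. Stil, which is needed to build a new centriole, read -0.74, 0.03, 0.46, -1.23 and 0.52 in blood, -1.05, -0.33, -0.82, -0.46 and -1.87 in liver, -2.48, -3.30, -2.26, -2.25 and -2.85 in lung, and -2.93, -2.78, -2.87, -2.49 and -1.10 in the small intestine. Its probe was well above background on 4 blood arrays, 3 liver arrays, 1 small intestine array and no lung array. Small intestine 5 overlapped with blood 4, and small intestine differed from blood by -2.24 (SE 0.40, adjusted p = 0.013).

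**Figure D4:**
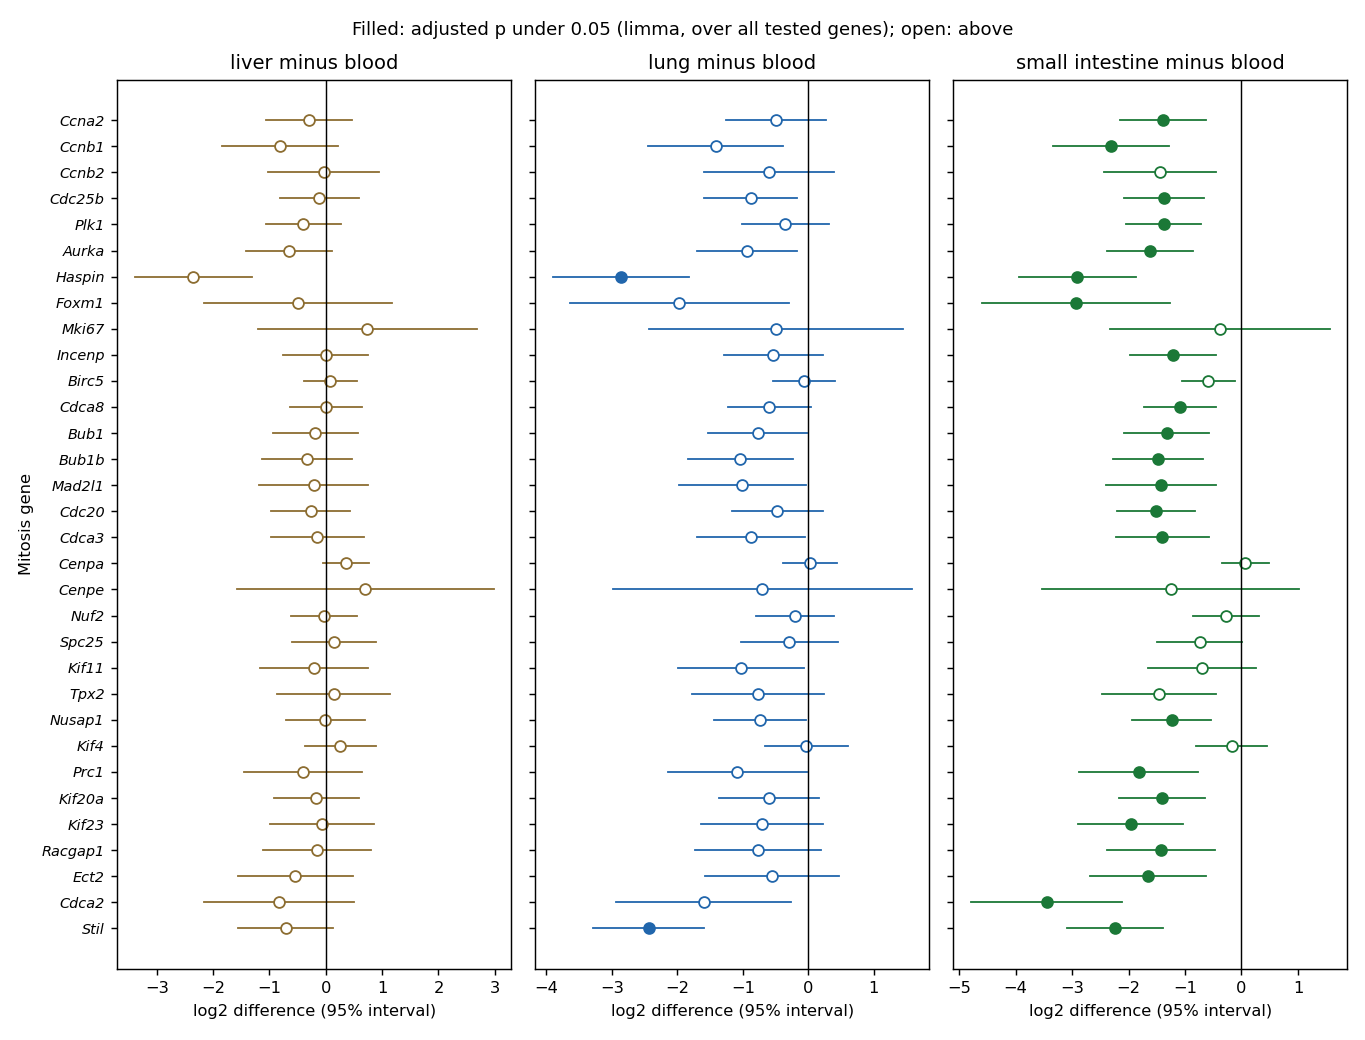
Difference of each of the 32 tested mitosis genes from blood, in liver (left), lung (middle) and small intestine (right), as log2 value with its 95% interval from limma, with filled circles for an adjusted p under 0.05 and open circles above it. Filled circles number 0 in liver, 2 in lung and 22 in the small intestine.

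Between lung and blood 2 of 32 genes were called lower, against 0.298% of all genes, and none higher, against 0.521%. Both, Haspin and Stil, passed the filter only through blood, so that the filter built in a lower value in lung, and with the filter for all 20 arrays, which neither passed, the count was 0 of 21 tested genes. Haspin differed by -2.86 (SE 0.49, adjusted p = 0.0070) and Stil by -2.44 (SE 0.40, adjusted p = 0.0064). Since neither was well above background on any lung array, Haspin was at least 2.23-fold and Stil at least 1.30-fold lower in lung, where the bound of the dim group is the lowest bright signal of each array. Of the 32 differences 31 were negative, with a median of -0.72 against -0.30 over all genes, and 14 genes had an unadjusted p under 0.05. How many of all genes were negative or reached that unadjusted p is not given here. Ccnb1 differed by -1.42 (SE 0.48, adjusted p = 0.12), Foxm1 by -1.97 (SE 0.79, adjusted p = 0.12) and Cdca2 by -1.60 (SE 0.63, adjusted p = 0.12). Lung lay below blood without overlap for Haspin, Stil and Aurka, or 3 genes, against 6.01% of all genes. Without liver 5 and small intestine 5, whose arrays enter only the estimate of the spread here, Foxm1 and Cdca2 were called too, or 4 of 32 against 1.18%. Lung 4 had the lowest identity mean of its site (3.93, others 4.24 to 4.53) and the lowest mitosis mean (1.04). The part of the other cells in these values was not tested.

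Between liver and blood no mitosis gene was called and no gene at all with limma (0 of 32 and 0%, with 1 of the 32 and 225 of the 8057 at an unadjusted p under 0.05). The median of the mitosis genes was -0.17, and 0.13 without liver 5 and small intestine 5, so its sign rested on liver 5. Haspin differed by -2.35 (SE 0.49, adjusted p = 0.28), and its liver values were all below those of blood, as held for 0.794% of all genes. Its probe was well above background on 1 of 5 liver arrays and passed the filter only through blood, so the size rests on dim values and the direction on the filter. Cenpa was next by p after Haspin, at 0.36 (SE 0.19, adjusted p = 0.997).

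Among the organs no mitosis gene was called with all arrays. Between small intestine and liver 32 of 32 differences were negative, with a median of -1.21 against -0.34 over all genes and 25 genes at an unadjusted p under 0.05, where limma called 0% of all genes (1776 at an unadjusted p under 0.05). Here too the share of negative differences over all genes is not given. Cenpa lay lower without overlap, as did 1.25% of all genes. Leaving out liver 5 alone gave 19 calls, against 3.7% of all genes called lower, and small intestine 5 alone 23, against 9.05%. Without liver 5 and small intestine 5, 25 of 32 were called lower, against 14.6%, and 26 did not overlap, against 15.6%. In that comparison Cdca2 differed by -3.74, adjusted p = 5.3e-05, and Cdc20 by -1.77, adjusted p = 0.00025. Cdca2 passed the filter only through blood and liver, with no signal well above background on small intestine 1 to 4. The filter thus favoured its lower value, and the size of its difference rests on dim values. The same held for Foxm1, Kif23 and Bub1b among the 25, while Cdc20 was well above background on all 20 arrays. Stil, also among the 25, passed the filter only through blood. It had no signal well above background on small intestine 1 to 4, so the size of its difference rests on dim values too. Relative to the identity genes and without the 2 arrays 6 were called, against 2.45%. Between small intestine and lung the median was -0.55 against -0.15. No gene of the list was called (8 at an unadjusted p under 0.05, without a count over all genes), where 0.137% of all genes were lower and 0.0124% higher. Plk1 lay lower without overlap, as did 0.695% of all genes. Without the 2 arrays Ccna2, Cdc20, Kif23 and Cdca2 were called, or 4 of 32 against 1.92%. Between lung and liver the median was -0.60 against -0.25. None was called (3 at an unadjusted p under 0.05, without a count over all genes), where 0.0372% of all genes were lower and 0.248% higher. Stil came nearest, at -1.72 (SE 0.40, adjusted p = 0.080), lay lower without overlap as did 4.02% of all genes, and was called without the 2 arrays (-1.96, adjusted p = 0.022, against 0.0124% of all genes). Over the 4 sites together the F-test of limma called Haspin, Cdca2 and Stil, against 0.757% of all genes. Haspin and Stil entered this test only through blood, and with the filter for all 20 arrays the F-test called 0 of the mitosis genes.

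Each slide held 1 array of every site, which gives 1 difference per slide. The median difference between small intestine and blood over the 32 genes was -1.47, -2.07, -1.43, -1.01 and -0.59 on slides 1 to 5, with 32, 32, 30, 27 and 28 genes lower. Over all tested genes the median was -0.21, -0.54, 0.08, -0.84 and -0.25, nearest to that of the 32 genes on slide 4. The number lower was not counted over all genes. Between lung and blood the median of the 32 genes was -0.32, -0.76, -0.63, -0.81 and -1.03, against -0.11, -0.19, -0.25, -0.56 and -0.23 over all genes. Between liver and blood it was 0.08, -0.07, -0.08, 0.72 and -1.50, against 0.004, -0.05, 0.05, 0.15 and -0.05. Between small intestine and liver it was -1.70, -1.92, -1.31, -1.71 and 0.86, against -0.22, -0.54, 0.10, -0.82 and -0.10. Slide 5, with the arrays labelled liver 5 and small intestine 5, thus went against the other 4 slides in this last comparison. Mki67 and Cenpe varied most between slides. The within-slide difference of Mki67 between small intestine and blood was -1.59, -1.97, -0.80, -0.02 and 2.46, and that of Cenpe was -2.29, -2.56, -2.86, -0.91 and 2.37. Both were lower in the small intestine on slides 1 to 4 and higher on slide 5. With the slide as a block 23 of 32 genes were called lower, Tpx2 being added, against 13.3% of all genes. With that block and without liver 5 and small intestine 5 it was 28, against 25.6%, with Mki67 and Cenpe among them.

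**Figure D5:**
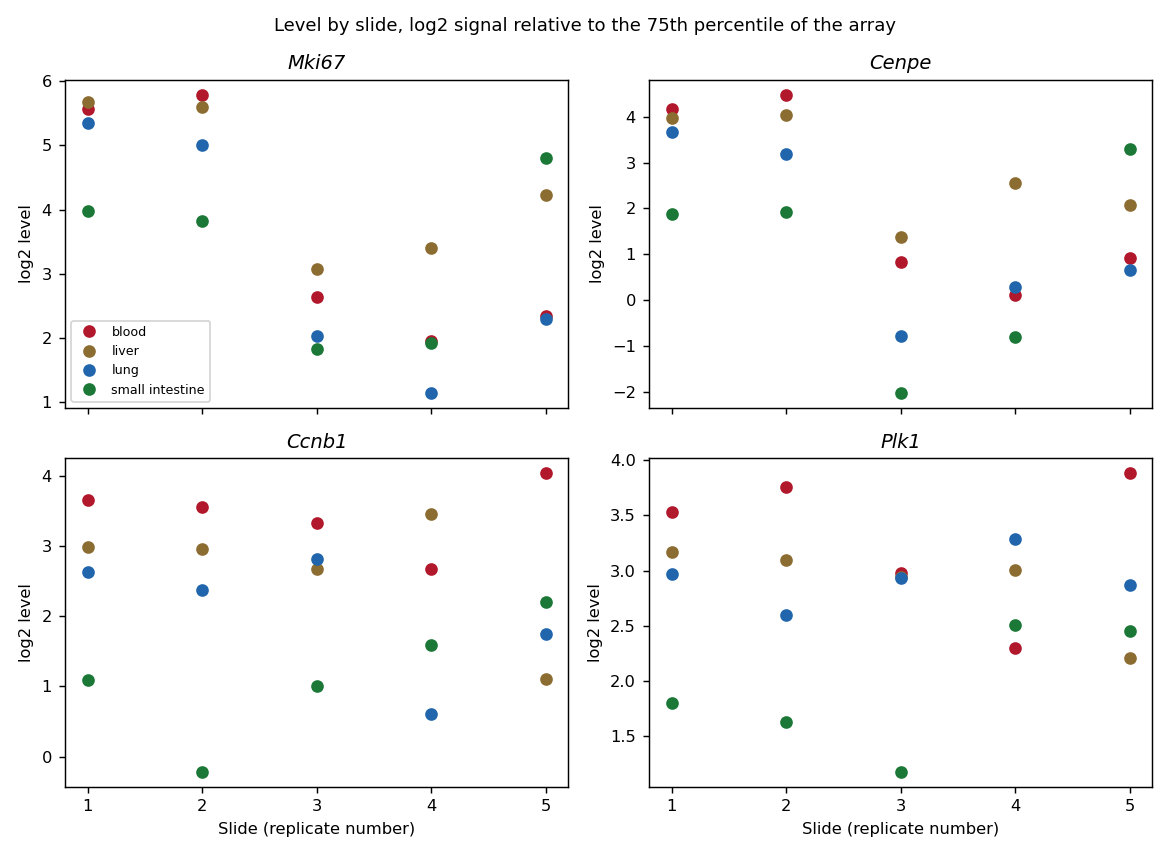
Log2 level of Mki67, Cenpe, Ccnb1 and Plk1 on the 5 slides, with 1 point per site and slide, coloured by site. Mki67 and Cenpe have higher means on slides 1 and 2 (5.10 and 3.42) than on slides 3 to 5 (2.64 and 0.70), with overlap, while Ccnb1 and Plk1 show no such step and small intestine is the lowest site on slides 1 to 3.

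Further genes of the same processes were taken from 6 lists that share no gene with the 42. Between small intestine and blood none of their genes was called higher. The counts stand beside 9.92% of all tested genes called lower and an all-gene median of -0.36, and the shares in the condensin and cohesin, kinetochore, and centriole lists lay nearer to that background than those of the other lists. Of 22 tested genes among further G2 and M phase genes 15 fell, with a median of -1.48, led by Depdc1b (-2.12, SE 0.45, adjusted p = 0.017), the chromosome motor Kif22 (-2.19, SE 0.48, adjusted p = 0.017), the centrosome kinase Nek2 (-1.92, SE 0.47, adjusted p = 0.021) and Pkmyt1, a kinase that inhibits Cdk1 (-1.16, SE 0.31, adjusted p = 0.027). Of 15 tested genes of the anaphase promoting complex and its partners 10 fell (median -0.95), among them the subunits Cdc16 (-1.54, SE 0.30, adjusted p = 0.016), Anapc2 (-1.12) and Anapc4 (-1.04) and its inhibitor Fbxo5 (-2.08). Condensin and cohesin genes were mostly not called, with 3 of 16 lower (median -1.09). These were Cdca5, the gene of sororin (-1.37), Sgo1, which protects centromeric cohesin (-1.65) and the condensin subunit Ncapd2 (-1.38). Of 24 further kinetochore genes 4 fell (median -0.87), namely Kntc1 (-1.19), Cenpt (-1.35), Mad1l1 (-1.96) and Cenpo (-1.99), and of 7 centriole and centrosome genes 1, Tubg1 (-1.39). Among regulators of the MuvB, E2F and RB families 4 of 13 fell, with a median of -0.96. E2f1 differed by -0.96 (SE 0.23, adjusted p = 0.020), E2f2 by -2.22 (SE 0.55, adjusted p = 0.023), Mybl2, the gene of B-Myb, by -1.18 (SE 0.35, adjusted p = 0.037) and E2f6 by -1.65 (SE 0.52, adjusted p = 0.046). Without liver 5 and small intestine 5 the counts of these 6 lists, in the same order, were 20, 10, 10, 13, 1 and 7, where 21.6% of all genes were called lower. Between lung and blood no gene of these lists was called with all arrays.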

How the data were processed

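RNA of CD8+ T cells was measured on 20 one-colour Agilent arrays, 5 per site, after linear amplification per the labels' protocols. The deposited intensity values are Agilent processed signals, made with Feature Extraction 10.7 by the submitters' processing notes and 11.0.1.1 per the file headers, which are background-subtracted on a linear scale. The authors' deposited table of log2 values matched quantile-normalized log2 processed signals (median absolute difference 0.000108, column median 8.05) and served as an alternative. The 5 slides carried 4 arrays apiece, 1 per site.

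The log2 processed signal was taken relative to the 75th percentile of its array, and 1377 control spots of 44397 and 24 non-uniform spots were left out. Spots of one probe were averaged. Probe accessions were matched to symbols of the RefSeq table for 27508 of 39429 probes, and the probe with the highest mean stood for its gene. Of the 42 mitosis genes 12 had several probes. Genes entered the fit with 4 or more arrays of some site flagged by the scanner software as well above background. All 8057 such genes were fitted with limma 3.58.1 in R 4.3.3, with 1 coefficient per site over 20 arrays and 16 residual degrees of freedom. Contrasts were two-sided, p-values were adjusted over all 8057 genes (Benjamini-Hochberg) separately for each of 6 comparisons, and a call is an adjusted p under 0.05. The fit was tested on simulated data. The difference tests of further probes were adjusted over 12138 probes. The mitosis genes, their roles and the further gene lists were chosen with earlier results of these data known. Up to 3 genes per role, by adjusted p between small intestine and blood, are given with every array, all called genes of the other comparisons and all members not called are named, and up to 4 genes per further list. Other probes are given where they differ in direction or call. Any other gene named in a comparison was picked after its values were seen. Alternatives were other scalings, quantile normalization, normexp background correction, other filters on dim probes, the mean of the probes, a pairwise fit, the slide as a block and the omission of arrays. The arrays labelled liver 5 and small intestine 5 were left out because earlier results of these data set them apart, and the combinations of this with the block and with the identity genes were chosen after seeing the data.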

Additional observations from a re-analysis of the deposited data

Results flagged for a closer look

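In each site the highest and lowest of the 5 arrays were compared with the others by Dixon's criterion, for the 32 tested genes and their mean. The gap to the next array, as a share of the range, exceeded the critical value of 0.71 in 14 of 132 groups. Chance gives about 1 in 20 for a single group. The groups share the same arrays and are not independent, so the 14 cannot be tested against that rate. The array was liver 5 or small intestine 5 in 10 of the 14. These values belong to the arrays whose Paneth cell markers go against their labels.

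Liver 5 was far below the other liver arrays in 7 genes. Plk1 stood at 2.21 (others 2.94 to 3.17), Aurka at 0.63 (others 2.48 to 2.68) and Foxm1 at -3.14 (others 0.86 to 1.33). Cdc20 stood at 3.54 (others 5.16 to 5.43) and Cdca3 at 1.71 (others 3.15 to 3.74). Ect2 stood at 0.79 (others 2.64 to 3.23) and Cdca2 at -1.00 (others 1.30 to 1.78).

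Small intestine 5 was far above the other arrays of its site in Foxm1 (-0.16, others -2.91 to -2.45), in Stil (-1.10, others -2.93 to -2.49) and in the mean of the mitosis genes (2.11, others 0.70 to 1.07). In the remaining 4 groups Cdc25b was high on blood 5 (3.09, others 2.42 to 2.57), Spc25 was low on lung 4 (3.07, others 3.71 to 3.93), Kif11 was low on blood 4 (-1.03, others 0.02 to 0.30) and Prc1 was low on blood 4 (2.52, others 3.49 to 3.86).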

How the results depend on the processing

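The number of genes called lower in the small intestine than in blood, 22, was 2 with scaling on the probes bright on all arrays (the bright probes). It was 13 with quantile normalization and 13 with the deposited table, 9 without a filter on dim probes and 14 with a pairwise fit. Relative to the CD8 T cell identity genes it was 0 (median -0.82), and 12 without liver 5 and small intestine 5 as well (median -0.83). With 1 array left out at a time it ranged from 0 to 26 and the median from -1.63 to -1.21, so the direction of the median held in each of these while the calls did not. The shares of all genes called with 1 array left out are not given beside these counts. Nor are shares given beside the counts that follow for the other comparisons and the F-test. On their own these counts do not set the mitosis genes apart from other genes. For lung against blood the count of 2 was 0 with the filter for all arrays, 4 without liver 5 and small intestine 5, 9 with scaling on the bright probes as well, and 2 to 3 with 1 array left out. The median was -1.06 with median scaling and ranged from -0.94 to -0.50 with 1 array left out. Liver against blood had 0 to 1 calls with 1 array left out (1 without liver 3), and medians of -0.28 to 0.13. Lung against liver had 1 call with quantile normalization, with the deposited table, without liver 5 and small intestine 5, and with scaling on the bright probes as well, and 0 to 1 with 1 array left out (medians -0.89 to -0.39). Small intestine against liver had 25 without these 2 arrays, 25 with scaling on the bright probes as well and 6 relative to the identity genes, and 0 to 23 with 1 array left out (medians -1.47 to -1.06). Small intestine against lung had 4 without the 2 arrays, 1 with scaling on the bright probes as well, and 0 to 1 with 1 array left out (medians -0.82 to -0.43). The F-test called 0 relative to the identity genes, 1 with normexp, 0 with the filter for all arrays, 26 without the 2 arrays, 24 with scaling on the bright probes as well, 8 relative to the identity genes without them, and 2 to 23 with 1 array left out. With the mean of all probes the site means were 1.78 (blood), 1.59 (liver), 1.05 (lung) and 0.50 (small intestine). With 1 array left out they were 2.42 to 2.69, 2.17 to 2.57, 1.51 to 1.84 and 0.84 to 1.20 in the same order. The difference between small intestine and blood changed sign for 5 genes. Mki67 was 0.21 relative to the identity genes, 0.032 without the 2 arrays as well, and -0.81 to 0.15 with 1 array left out (0.094 without blood 1, 0.15 without blood 2). Birc5 was 0.095 relative to the identity genes without the 2 arrays. Cenpa was -0.16 with median scaling and -0.047 (without blood 4) to 0.17 with 1 array left out. Relative to the identity genes, with all arrays and without the 2, Nuf2 was 0.31 and 0.66 and Kif4 was 0.42 and 0.59. The cause of these changes was not tested.

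Arrays of one slide share a replicate number, and no label says that they share an animal. Their deviations from the site means correlated with a median of 0.16, against -0.05 for arrays of different numbers. The correlation was above 0.1 in 18 of 30 pairs (-0.37 to 0.56), so pairing was not taken as shown, and 7 of 20 arrays correlated best with one of their own number. With the replicate block the small intestine count was 23, and with the replicate block and without liver 5 and small intestine 5 lung against blood had 6 calls, small intestine against liver 27, small intestine against lung 5 and the F-test 28. The shares of all genes called are not given beside these counts either. Probes near background limit Haspin, Stil, Foxm1, Cdca2, Kif23 and Bub1b in the small intestine.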
